A study of Mus musculus with 6 samples.

Results

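The Hox genes of the 4 mouse clusters, HoxA, HoxB, HoxC and HoxD, were followed in cultured aortic cells that carry an endothelial-specific knockout of Oct4. Members were the protein-coding genes whose symbol was Hox, a cluster letter from a to d and a number, which gave 40 entries of the 54532 genes in the deposited table. They stood for 39 symbols, because Hoxd4 was listed under 2 identifiers. They were chosen by symbol and biotype alone, and no count entered that rule. The family was taken up with its difference between the sexes already known from these same libraries, so the calls and fold changes given for it are descriptions.

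Gene expression had been measured by bulk RNA-seq of polyadenylated RNA in primary cultures from mouse aorta, labelled MAEC. The 2 groups were female Oct4 KO cells and male Oct4 KO cells, with 3 libraries each. Every library carries the knockout of Oct4, the pluripotency factor encoded by Pou5f1, and none was treated. The deletion is specific to endothelial cells, so cells of other types in such a culture would not carry it. The cells were kept in serum-rich F-12 medium with heparin, antibiotics and growth factors for endothelial cells, and the study set out to learn what OCT4 does in the endothelium. The strain, the age of the mice and the Cre line that drove the deletion are not given in the sources used here. Whether the 3 libraries of a sex were separate cultures or animals is not given either, so the p-values measure the spread between these libraries, which may be technical. Wild-type littermate cells are not analysed here, and the sex of the mice and whatever else set their cultures apart cannot be told apart.

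Hox genes encode homeodomain transcription factors that give cells along the head-to-tail axis their positional identity. Each cluster is read in the order of its genes, with low-numbered paralogs expressed first and farthest forward and high-numbered paralogs later and farther back, and genes with the same number in different clusters are paralogs that descend from the same ancestral gene. The proteins bind DNA together with PBX and MEIS cofactors. Polycomb complexes keep silent Hox genes closed, trithorax proteins keep active ones open, and retinoic acid and CDX factors start their expression in the embryo. Cultured fibroblasts and vascular wall cells are known to keep much of the Hox pattern of the body site they came from.

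Total counts were 20404758 to 21483163 in the female libraries and 19299742 to 23064738 in the male libraries. Levels are given as CPM, the usual scaled count, over the library size after TMM scaling. An observed 0 is compatible with up to 3 counts, or 0.145 to 0.154 CPM in female and 0.123 to 0.151 CPM in male libraries. Without molecular identifiers, limits and intervals of this kind reflect counting error and no other. No library had a read on Pou5f1, which checks nothing without wild-type cells. Of 15 endothelial marker genes, 10 stayed under 1 CPM in all 6 libraries, and Emcn, Cldn5, Robo4 and Sox17 had 0 counts. Cdh5, the endothelial cadherin gene, was at 0.0683 ± 0.118 CPM in female and 0.0727 ± 0.0646 CPM in male cells (SD, n = 3 each), so defining endothelial markers were near absent in cultures labelled endothelial. The summed level of that list was 192 to 212 CPM in female and 271 to 335 CPM in male libraries, most of it from Eng, Flt1 and Cd34. All 10 fibroblast markers reached 1 CPM in every library, with a sum of 15339 to 17255 CPM in female and 7243 to 7899 CPM in male libraries. The sums were 62.4 to 67.4 CPM in female against 160 to 174 CPM in male libraries for 8 smooth muscle markers, and 442 to 460 CPM in female against 720 to 761 CPM in male libraries for 6 pericyte markers. For 5 neural crest and glia markers they were 95.8 to 117 CPM in female against 9.09 to 11.4 CPM in male libraries, nearly all of it from Ednrb in female cells. Single abundant genes carried some of these sums. Smtn (57.5 ± 2.07 CPM in female and 132 ± 5.10 CPM in male cells) gave most of the smooth muscle sum, while Myh11, Tagln, Cnn1 and Des averaged under 1 CPM in each sex. Among all genes tested, 60.7% were called at an adjusted p under 0.05 (edgeR), 30.9% higher and 29.8% lower in female cells. The counts called in these marker lists stand beside that share. Of the 5 smooth muscle markers tested, 4 were called lower in female cells and Tagln was not called. Of the 6 pericyte markers, Cspg4 (108 ± 12.7 CPM in female and 3.19 ± 0.233 CPM in male cells), Kcnj8, Abcc9 and Notch3 were called higher in female cells, and Rgs5 (0.756 ± 0.456 CPM in female and 256 ± 10.1 CPM in male cells) and Pdgfrb lower, so the sum and most of the list ran opposite ways. Of the 5 endothelial markers tested, Flt1 and Cd34 were called higher and Eng and Pecam1 lower, and of the 10 fibroblast markers 6 were called higher and Fbln1, Mfap5 and Col1a2 lower. Among the genes called, Kcnj8, Abcc9, Rgs5, Pecam1 and the smooth muscle marker Lmod1 averaged 1 CPM in only 1 sex. They passed the low-count filter only through that sex, so their calls are no separate support. The 7 leukocyte markers summed to 69.6 to 86.0 CPM in female and 77.3 to 93.8 CPM in male libraries, with Ptprc and Adgre1 at 0. These similar sums covered opposite differences. Of the 4 tested, Cd14 (63.9 ± 10.2 CPM in female and 26.5 ± 2.47 CPM in male cells) and Cd68 were called higher in female cells. Lyz2 (9.89 ± 1.13 CPM in female and 54.6 ± 6.03 CPM in male cells) was called lower, and Csf1r was not called. The 7 mesothelial and epithelial markers summed to 0.205 to 0.862 CPM in female and 2.39 to 3.18 CPM in male libraries, with Msln, Upk3b and Lrrn4 at 0. Nearly all of the male sum was Krt19 (0.303 ± 0.397 CPM in female and 2.51 ± 0.221 CPM in male cells). Only the male libraries carried Krt19 past the low-count filter. The part of cell makeup in the Hox differences was not tested, and in such bulk RNA fewer cells of a type and less RNA per cell cannot be told apart.

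Female cells carried more Hox RNA than male cells and drew it from more clusters. The female libraries held 494.6, 454.5 and 499.7 CPM over the whole family, against 181.2, 170.1 and 185.8 CPM in the male libraries. A level of 1 CPM in every library was reached by 20 members in female cells and 16 in male cells, and 14 members reached it in all 6 libraries. Female cells read HoxA, HoxB and HoxC genes, male cells read HoxA and HoxB genes, and HoxD was close to silent in both. Within HoxA the direction changed along the cluster: Hoxa3 and Hoxa4 were lower in female cells, Hoxa5, Hoxa6, Hoxa7 and Hoxa9 were higher, and Hoxa10 was read almost only in male cells.

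**Figure D1:**
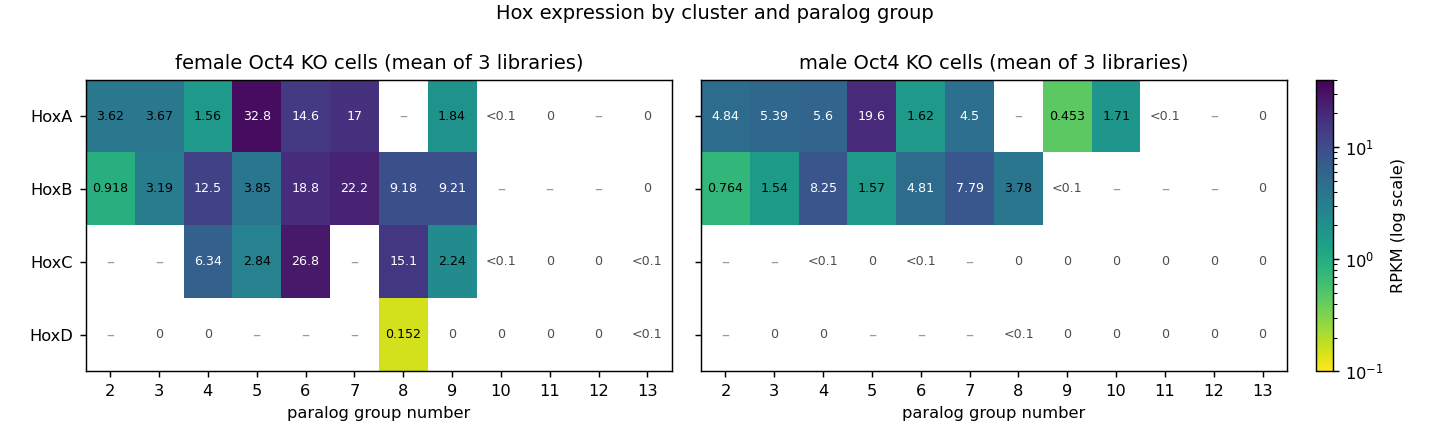
Mean level of each Hox gene in RPKM (reads scaled by gene length and library size, log colour scale) by cluster (down) and paralog number from 2 to 13 (across), in female Oct4 KO cells on the left and male Oct4 KO cells on the right, 3 libraries each. Dashes mark positions with no gene, and the HoxC row is filled from Hoxc4 to Hoxc9 in female cells and below 0.1 RPKM throughout in male cells.

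Of the 40 entries, 22 had enough reads to be tested and 18 did not. With edgeR and Benjamini-Hochberg adjustment over the 14814 genes tested, 16 of the 22 were called higher in female cells, 4 lower and 2 were not called at an adjusted p under 0.05. Of the whole tested table, 60.7% was called, 30.9% in the higher and 29.8% in the lower direction, so most genes differed between these cultures. The groups were separate for each of the 22, with every female library above every male library for 17 and below for 5. Over the whole table of tested genes, the groups were separate for 67.1%, 33.9% with female above and 33.2% with female below. The median log2 fold change, female over male, was 1.41 over the 22 and -0.01 over all genes tested, and the 22 gave 1.41 also with the genes of few or 0 counts in a sex at their counted ratio or lower bound. Of the 22, 7 (Hoxa10, Hoxb9, Hoxc4, Hoxc5, Hoxc6, Hoxc8 and Hoxc9) averaged 1 CPM in only 1 sex and could pass the low-count filter only through it, so they had to differ. The median of 1.41 includes these 7 in both forms, so its distance from the whole table is partly set by the filter. The other 15 averaged at least 1 CPM in each sex, and of them 10 were called higher, 3 lower and 2 were not called.

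**Figure D2:**
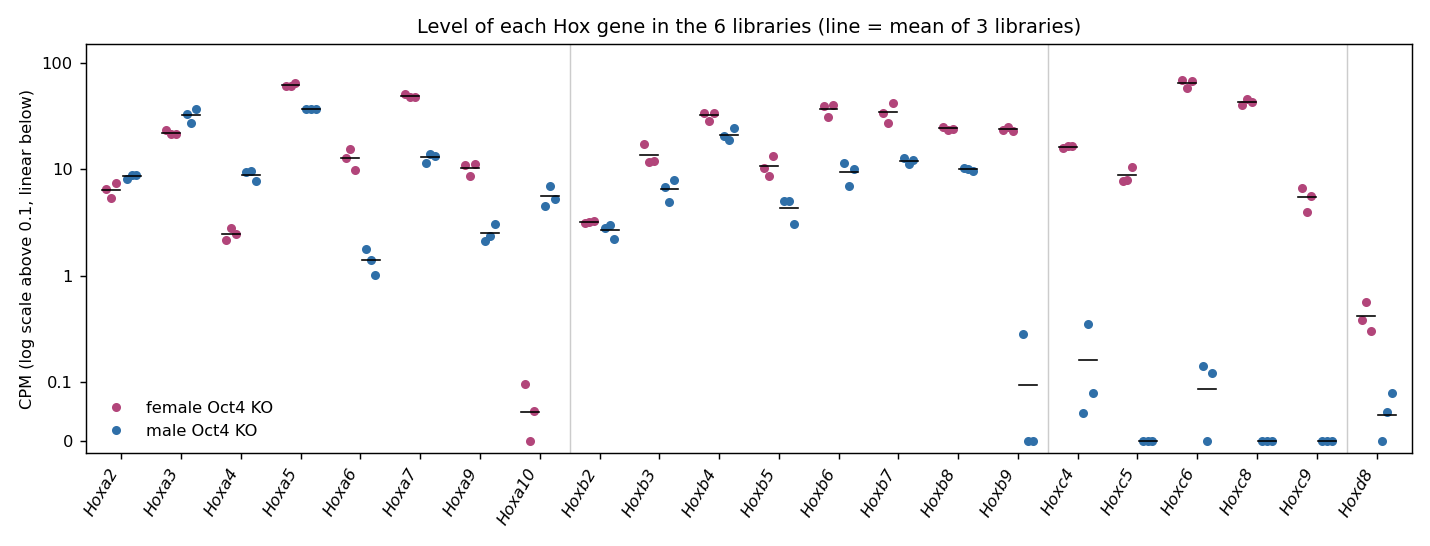
Level of tested Hox genes with paralog numbers from 2 up, and of Hoxd8, in each library, in CPM (log scale above 0.1, linear below), with female Oct4 KO libraries left of male ones and a line at the mean of 3. No tested gene shown has overlapping groups, and the HoxC genes sit at or near 0 in all 3 male libraries.

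The HoxA cluster lies on the minus strand of chromosome 6 from 52155590 to 52260880 (mm10), and Hoxa3 and Hoxa4, on its anterior side, were called lower in female cells. Hoxa2, which specifies the second pharyngeal arch, had 6.47, 5.43 and 7.40 CPM in female and 8.11, 8.87 and 8.80 CPM in male libraries. Its female values all lay under the male ones, but it was not called (log2 fold change -0.42 ± 0.18 SE, edgeR adjusted p = 0.0587). Upper quartile scaling (edgeR adjusted p = 0.0279), plain library totals (0.0192) and the fit without female replicate 3 (0.0377) did call it lower.

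Hoxa3, which patterns the third pharyngeal arch, the thymus and the carotid region, had 23.4, 21.4 and 21.4 CPM in female libraries, against 33.1, 27.2 and 37.0 CPM in male libraries (log2 fold change -0.56 ± 0.12). Annotated exons of other genes on either strand covered 27.1% of its exonic bases, so some of its reads may belong to them. Hoxa4, a gene of cervical vertebral patterning, had 2.17, 2.82 and 2.48 CPM in female libraries, against 9.48, 9.53 and 7.77 CPM in male libraries. Hoxa4 differed 3.58-fold, in favour of male cells, and its log2 fold change was -1.84 ± 0.22 (edgeR adjusted p = 1.43e-06).

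The next genes of the cluster ran the other way. Hoxa5, needed for the respiratory tract and the cervicothoracic skeleton, had 60.3, 59.99 and 64.1 CPM in female libraries, against 36.9, 36.7 and 36.5 CPM in male libraries. The 3 male libraries differed by a coefficient of variation of 0.577%, the smallest of the 16 members detected in male cells, and the sexes stood 1.67-fold apart (log2 fold change 0.74 ± 0.09). Hoxa6, a gene of thoracic identity, had 12.8, 15.6 and 9.88 CPM in female libraries, against 1.80, 1.41 and 1.03 CPM in male libraries. Of the 15 genes read in each sex it had the largest fold, 9.05-fold in favour of female cells, with a log2 fold change of 3.18 ± 0.25 (edgeR adjusted p = 1.08e-08). Hoxa7, its neighbour in the trunk-patterning part of the cluster, had 51.0, 47.9 and 47.8 CPM in female libraries, against 11.4, 14.02 and 13.4 CPM in male libraries (log2 fold change 1.92 ± 0.11). Exons of the antisense gene Hoxaas3 covered 20.4% of the exonic bases of Hoxa7. Hoxa9, known for its part in blood stem cells and in postnatal angiogenesis, had 10.96, 8.71 and 11.2 CPM in female libraries, against 2.13, 2.37 and 3.08 CPM in male libraries (log2 fold change 2.02 ± 0.22). All 4 genes were called higher in female cells.

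Hoxa10, a gene of lumbar identity and of uterine development, was read almost only in male cells. Female libraries held 2, 0 and 1 of its counts (0.0966, 0 and 0.0507 CPM), and male libraries held 96, 139 and 127 (4.55, 7.01 and 5.22 CPM). The ratio was 111-fold higher in male cells, with a 95% counting interval from 37.6 to 540, and edgeR called it lower in female cells. It passed the low-count filter only through the male libraries, so the call is no separate support. Its annotated 3′ end lies 107 bases from the start of Hoxa9, whose level was 4.04-fold higher in female cells. Hoxa11, a gene of forearm and kidney development, had 0 counts in female libraries and 0, 0 and 2 counts in male libraries. Hoxa13, which shapes the digits and the genital tubercle, had 0 counts in all 6.

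**Figure D3:**
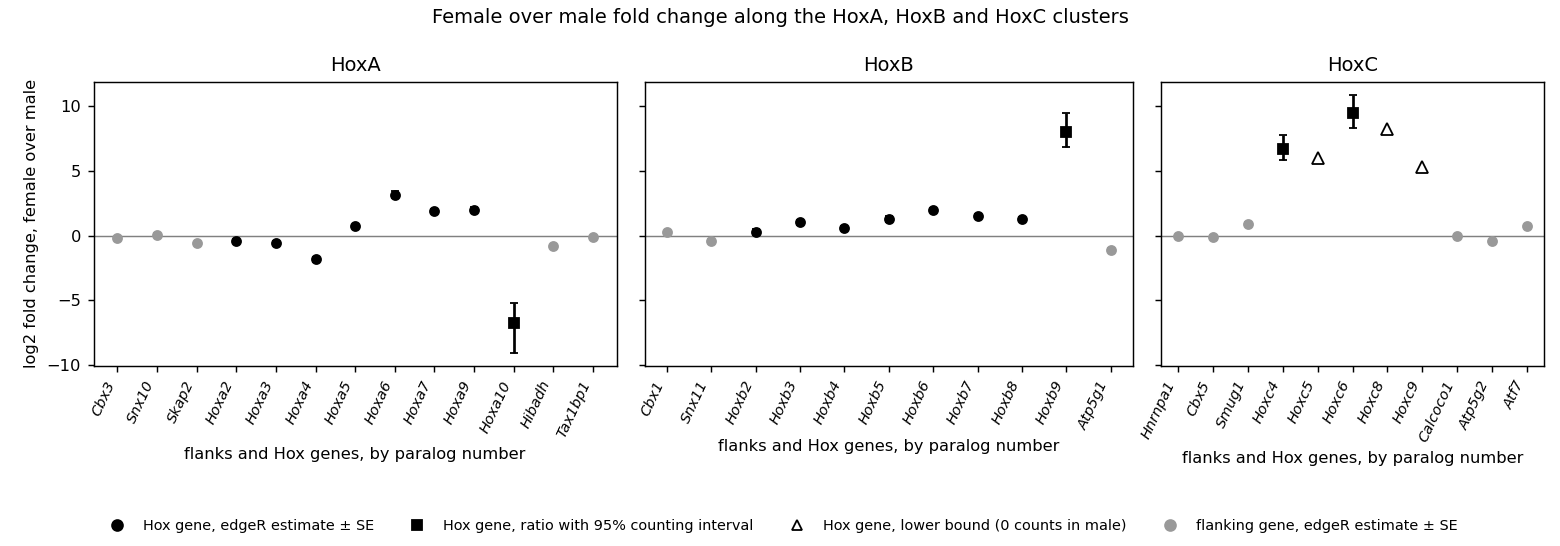
Log2 fold change, female over male Oct4 KO cells, of tested Hox genes (black, by paralog number from 2 up) and of the tested flanking genes outside each cluster (grey). Circles are edgeR estimates with SE, squares are ratios with a 95% counting interval and triangles are lower bounds for genes with 0 male counts, and HoxA changes sign between Hoxa4 (-1.84) and Hoxa5 (0.74) and again at Hoxa10.

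In HoxB, on the plus strand of chromosome 11 from 96194316 to 96368256, every called gene was higher in female cells. Hoxb1, a gene of the hindbrain, had 0, 2 and 0 counts in female libraries and 0 in the male ones. Hoxb2, active in the hindbrain and the facial nerve, had 3.14, 3.18 and 3.29 CPM in female libraries, against 2.80, 2.97 and 2.22 CPM in male libraries. These groups did not overlap, but the gene was not called (log2 fold change 0.27 ± 0.28, edgeR adjusted p = 0.426). Hoxb3, another hindbrain gene, had 17.1, 11.7 and 11.96 CPM in female libraries, against 6.83, 4.89 and 7.94 CPM in male libraries (log2 fold change 1.05 ± 0.20). Exons of the antisense gene Hoxb3os covered 52.9% of the exonic bases of Hoxb3 and 27.3% of those of Hoxb2. Whether the counts separate sense from antisense reads is not given. Hoxb4, best known for expanding blood stem cells, had 34.1, 28.6 and 33.8 CPM in female libraries, against 20.4, 19.0 and 24.1 CPM in male libraries. It shared no exonic base with another gene, and its log2 fold change was 0.60 ± 0.12 (edgeR adjusted p = 0.000451).

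The middle HoxB genes had log2 fold changes of 1.28 or more. Hoxb5, which activates the VEGF receptor gene Kdr in mouse endothelial precursors, had 10.3, 8.61 and 13.2 CPM in female libraries, against 5.03, 5.04 and 3.04 CPM in male libraries. Kdr itself was at 0.471 ± 0.302 CPM in female cells and had 0 counts in male cells (SD, n = 3 each), too few reads to be tested. Whether Hoxb5 bears on Kdr in these cells was not tested. Every female library lay above every male library for Hoxb5 and for each of the next 3 genes. Hoxb6, a gene of trunk and limb mesoderm, had 39.5, 30.6 and 40.5 CPM in female libraries, against 11.4, 6.96 and 9.99 CPM in male libraries. Hoxb7, a gene of trunk mesoderm and kidney ducts, had 33.6, 27.4 and 41.9 CPM in female libraries, against 12.7, 11.1 and 12.3 CPM in male libraries. Hoxb8, known in myeloid and microglial progenitors, had 24.9, 23.6 and 24.0 CPM in female libraries, against 10.2, 10.1 and 9.58 CPM in male libraries. The log2 fold change was 1.30 ± 0.23 for Hoxb5, 1.96 ± 0.17 for Hoxb6, 1.51 ± 0.15 for Hoxb7 and 1.28 ± 0.13 for Hoxb8, and all were called higher.

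Hoxb9, a gene of rib and thoracic patterning, had the widest gap of its cluster. Its counts were 481, 490 and 450 in female libraries (23.2, 25.1 and 22.8 CPM), against 6, 0 and 0 in male libraries (0.285, 0 and 0 CPM). The ratio was 258-fold higher in female cells, with a 95% counting interval from 118 to 703, and edgeR called it higher. Hoxb9 passed the low-count filter only through the female libraries, so the call is no separate support. Hoxb8, which starts 5309 bases beyond the annotated end of Hoxb9, stood at 24.2 ± 0.668 CPM in female and 9.95 ± 0.327 CPM in male cells (SD, n = 3 each). Hoxb13, at the far end of the cluster and known for prostate and tail development, had 0 counts in all 6 libraries.

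The HoxC cluster, on the plus strand of chromosome 15 from 102921103 to 103036852, was read in female cells alone apart from 16 counts over the male libraries. Hoxc4, a gene of cervical and upper thoracic patterning, had 15.9, 16.4 and 16.5 CPM in female libraries, against 0.0474, 0.353 and 0.0822 CPM in male libraries, which was 1, 7 and 2 counts. The ratio was 106-fold higher in female cells (95% counting interval 57.5 to 222). Hoxc5, its trunk neighbour, had 7.82, 7.99 and 10.5 CPM in female libraries and 0 counts in each male library, at least 63.1-fold higher in female cells. Bounds of this kind are set against 3 counts per male library. Hoxc6, a gene of the thoracic skeleton and the mammary gland, had 68.2, 58.4 and 67.1 CPM in female libraries, against 0.142, 0 and 0.123 CPM in male libraries, which was 3, 0 and 3 counts. It was 703-fold higher in female cells, with a 95% counting interval from 323 to 1916.

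Hoxc8, which sets brachial motor neuron and rib identity, was counted 838, 882 and 847 times in female libraries (40.5, 45.2 and 42.9 CPM) and never in a male library. It was at least 308-fold higher in female cells. Hoxc9, which specifies thoracic motor neurons and is tied to a quiescent state in human endothelial cells, had 6.71, 3.996 and 5.63 CPM in female libraries and 0 counts in male libraries, at least 39.2-fold higher in female cells. All 5 genes from Hoxc4 to Hoxc9 were called higher by edgeR. They passed the low-count filter only through the female libraries, so these calls are no separate support. Past Hoxc9 the cluster was close to silent in female cells too. Hoxc10, a lumbar gene, had 0, 0 and 2 counts and Hoxc13, the hair and nail gene, 0, 3 and 0 counts in female libraries, with 0 counts of each in male libraries. Hoxc11 and Hoxc12 had 0 counts in all 6 libraries.

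In HoxD, on the plus strand of chromosome 2 from 74668310 to 74765142, 8 of the 10 entries had 0 counts in every library: Hoxd1, Hoxd3, both Hoxd4 entries, Hoxd9, Hoxd10, Hoxd11 and Hoxd12. Hoxd8, a trunk gene, had 8, 11 and 6 counts in female libraries, against 0, 1 and 2 counts in male libraries, a ratio of 9.07 with a 95% counting interval from 2.77 to 46.9. It had too few reads to be tested in the edgeR fit, and the DESeq2 Wald test put it at the threshold (log2 fold change 3.22 ± 1.41, adjusted p = 0.0499). In edgeR without the low-count filter it was not called (adjusted p = 0.0704). Hoxd13, the digit gene, had 2, 0 and 0 counts in female libraries and 0 in male libraries. Of the 18 members not tested, 12 had 0 counts in all 6 libraries, 5 had 1 to 3 counts over the 6 libraries, and the last was Hoxd8.

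The farthest-back genes detected were Hoxa9, Hoxb9 and Hoxc9 in female cells, so that paralog number 9 was reached in each of the 3 active clusters. In male cells they were Hoxa10 and Hoxb8. Levels of different genes were compared per length, in RPKM. Group 9 summed to 13.3 ± 0.410 RPKM in female and 0.490 ± 0.0641 RPKM in male cells (SD, n = 3 each here and below), and group 10 to 0.0327 ± 0.0344 RPKM in female and 1.71 ± 0.388 RPKM in male cells. Group 6 stood widest apart among the groups 4 to 8, at 60.2 ± 2.74 RPKM in female and 6.46 ± 1.38 RPKM in male cells. Group 3 summed to 6.86 ± 0.907 RPKM in female and 6.93 ± 1.18 RPKM in male cells, with more Hoxb3 and less Hoxa3 in female cells. Groups 11 and 12 held at most 0.0120 ± 0.0208 RPKM in either sex.

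In female cells the order by RPKM began with Hoxa5 (32.8 ± 1.22 RPKM), Hoxc6 (26.8 ± 2.23), Hoxb7 (22.2 ± 4.71), Hoxb6 (18.8 ± 2.77) and Hoxa7 (17.01 ± 0.614). Hoxa5 lay clear of Hoxc6, while Hoxc6 overlapped Hoxb7, Hoxb7 overlapped Hoxb6 and Hoxb6 overlapped Hoxa7. In male cells it began with Hoxa5 (19.6 ± 0.113 RPKM), Hoxb4 (8.25 ± 1.04), Hoxb7 (7.79 ± 0.536), Hoxa4 (5.60 ± 0.628) and Hoxa3 (5.39 ± 0.818). Hoxa5 again lay clear of the rest, Hoxb4 overlapped Hoxb7, and Hoxa4 overlapped Hoxa3. Hoxa5 alone gave 15.7% of the summed Hox RPKM in female cells and 26.5% in male cells. Over the detected members, the median coefficient of variation between libraries was 11.3% for the 20 in female cells and 14.99% for the 16 in male cells.

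The makeup of the Hox RNA differed in its HoxA and HoxC shares. HoxA gave 36.2% ± 2.40 of the summed RPKM in female and 61.2% ± 2.05 in male cells, and HoxB gave 38.1% ± 2.55 in female and 38.6% ± 2.10 in male cells. HoxC gave 25.5% ± 0.148 in female and 0.136% ± 0.0499 in male cells, and HoxD 0.0798% ± 0.0266 in female and 0.0220% ± 0.0203 in male cells. The HoxB shares overlapped between the sexes, although the summed HoxB level was 79.9 ± 8.96 RPKM in female and 28.5 ± 2.42 RPKM in male cells. The summed HoxA level was 75.6 ± 1.62 RPKM in female and 45.1 ± 0.194 RPKM in male cells. HoxA was thus higher in female cells though its share was lower. Paralogs 1 to 3 gave 5.71% ± 0.447 in female and 18.9% ± 1.18 in male cells. Paralogs 4 to 8 gave 87.9% ± 0.571 in female and 78.1% ± 0.969 in male cells, and paralogs 9 to 13 gave 6.40% ± 0.243 in female and 3.01% ± 0.561 in male cells. Without length scaling, paralogs 1 to 3 gave 9.63% in female and 29.8% in male cells, and paralogs 9 to 13 gave 4.63% in male cells. Without the members whose span contains another, paralogs 1 to 3 gave 12.6% in male cells.

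**Figure D4:**
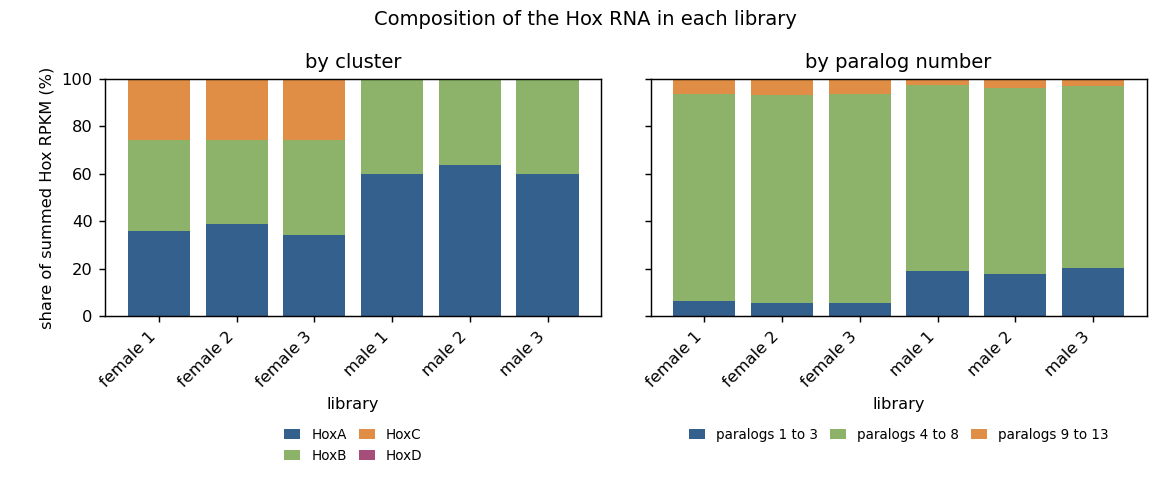
Share of the summed Hox RPKM (percent) in each library, female Oct4 KO libraries left of male ones, split by cluster on the left and by paralog number on the right. HoxC gives 25.4% to 25.7% in the female libraries and 0.103% to 0.193% in the male libraries, and HoxD is too small to be seen.

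The group 4 paralogs each differed in their own way: Hoxa4 lower in female cells, Hoxb4 higher, Hoxc4 nearly confined to female cells and Hoxd4 with 0 counts in both. For that contrast, and for Hoxa10 as the gene read almost only in male cells, the RefSeq promoter windows are shown, 250 bases before to 50 after the annotated start (GRCm38.p6), with the windows of Hoxc4 at chr15:103034145-103034444, Hoxb4 at chr11:96318017-96318316 and Hoxd4 at chr2:74721728-74722027 on the plus strand and Hoxa10 at chr6:52240805-52241104 on the minus strand. Hoxa4 was not matched in that table, and the Hoxc4 window lies inside the deposited span of that gene, at a start other than its first. Capitals mark the matches to 3 motifs searched on both strands: TATAAA (the TATA box), AGGTCA (the nuclear receptor half-site) and TGATTNAT (the composite site of PBX and Hox proteins).
Hoxc4: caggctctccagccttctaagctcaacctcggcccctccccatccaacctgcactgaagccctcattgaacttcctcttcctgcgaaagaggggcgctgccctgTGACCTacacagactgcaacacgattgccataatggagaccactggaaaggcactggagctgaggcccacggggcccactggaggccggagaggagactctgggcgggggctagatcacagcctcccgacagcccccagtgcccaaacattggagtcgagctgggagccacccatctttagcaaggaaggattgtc
Hoxb4: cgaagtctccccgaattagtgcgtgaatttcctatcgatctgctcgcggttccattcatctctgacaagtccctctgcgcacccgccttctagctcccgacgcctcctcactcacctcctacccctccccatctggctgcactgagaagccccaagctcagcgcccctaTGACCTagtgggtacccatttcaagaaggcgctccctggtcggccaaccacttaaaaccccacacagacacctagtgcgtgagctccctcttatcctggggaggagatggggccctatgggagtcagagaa
Hoxd4: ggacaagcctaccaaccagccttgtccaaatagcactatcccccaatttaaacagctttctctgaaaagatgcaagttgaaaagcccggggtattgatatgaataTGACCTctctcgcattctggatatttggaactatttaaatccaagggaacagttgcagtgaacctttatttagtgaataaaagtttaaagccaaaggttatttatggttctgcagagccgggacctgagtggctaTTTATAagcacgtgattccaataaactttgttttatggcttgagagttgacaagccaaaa
Hoxa10: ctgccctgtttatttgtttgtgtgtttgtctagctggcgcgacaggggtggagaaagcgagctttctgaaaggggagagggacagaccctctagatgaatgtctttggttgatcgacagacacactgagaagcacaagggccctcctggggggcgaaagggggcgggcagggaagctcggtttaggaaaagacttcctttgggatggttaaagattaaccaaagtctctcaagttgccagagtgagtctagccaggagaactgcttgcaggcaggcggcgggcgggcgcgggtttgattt
AGGTCA was found once on the minus strand in each of the 3 group 4 windows, where it reads TGACCT, beginning 146 bases before the start of Hoxc4, 81 before that of Hoxb4 and 145 before that of Hoxd4. TATAAA was found in the Hoxd4 window only, on the minus strand, and the Hoxa10 window held none of the 3. Of the 32851 RefSeq windows of that length, 16.3% held AGGTCA, 13.6% TATAAA and 3.22% TGATTNAT, and a match describes the letters and is no evidence of binding. The windows held 9, 14, 4 and 12 CpG dinucleotides in the order printed, against a median of 7 (quartiles 3 and 20) over all windows and 14.5 over the 24 windows of the 22 Hox symbols in the table.

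The clusters also carry the miRNA genes of the miR-10 and miR-196 families, which are known to bind Hox messages. Their mature sequences, from RefSeq (GRCm38.p6), are shown because 1 of these genes, Mir196a-1, lies next to Hoxb9 and because several Hox messages described above hold their sites. Capitals mark the seed, bases 2 to 8, which is shared within each family.
miR-10a-5p (chr11:96317186-96317208, plus strand): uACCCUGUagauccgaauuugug
miR-10b-5p (chr2:74726074-74726096, plus strand): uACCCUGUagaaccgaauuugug
miR-196a-5p (chr11:96265187-96265208 and chr15:102973365-102973386, plus strand): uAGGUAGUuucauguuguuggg
miR-196b-5p (chr6:52230129-52230150, minus strand): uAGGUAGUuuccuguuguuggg
The libraries do not measure mature miRNAs, and reads on the hairpin genes were few. Mir196a-1, between Hoxb13 and Hoxb9, had 7, 2 and 2 counts in female libraries and 0 in male libraries. Mir10a, upstream of Hoxb4, had 5, 6 and 2 counts in female libraries and 8, 0 and 5 in male libraries. Mir196a-2, Mir196b and Mir10b had 0 counts in all 6.

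The match to the miR-196 seed, ACTACCT, was present in the annotated GENCODE M21 3′ UTRs of 9 of 39 Hox genes and in 6.14% of the 3′ UTRs of 20802 genes, with median lengths of 966 and 967 bases. Hoxa4, Hoxa7 and Hoxc8 were among the 9. The match to the miR-10 seed, ACAGGGT, was present in 4 of 39, Hoxa3 and Hoxb3 among them, and in 12.6% of all. Hoxb8 has no exact seed match, but its 3′ UTR holds the site that pairs with miR-196a over its whole length, with 21 of 22 bases in Watson-Crick pairs and 1 wobble pair, written in lower case. It is shown beside a seed-match site of Hoxc8 and one of Hoxa7, where capitals mark the seed match alone.
Hoxb8 (chr11:96284888-96284909, plus strand): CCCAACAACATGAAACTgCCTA
Hoxc8 (chr15:102992976-102992997, plus strand): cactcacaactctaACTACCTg
Hoxa7 (chr6:52215400-52215421, minus strand): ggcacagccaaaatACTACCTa
The next best window of the Hoxb8 3′ UTR paired at 11 bases. The levels of the genes with these sites are those given above, with Hoxb8, Hoxc8 and Hoxa7 each called higher in female cells and Hoxa4 lower, and no effect of a miRNA on them was tested.

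Of 43 non-coding genes inside the clusters, 27 had 0 counts in all 6 libraries, among them Hotair and Haglr, and 10 were tested, of which 3 were called higher in female cells, 1 lower and 6 not called. The 4 called of 10 stand beside 60.7% called over all genes tested. The 3 called higher, Gm53, Hoxb5os and Gm11536, averaged 1 CPM in female cells only. They passed the low-count filter only through the female libraries, so these 3 calls are no separate support. Gm53, a long intergenic RNA gene on the Hoxb13 side of Hoxb9 (chromosome 11, 96251105 to 96264868), was at 3.64 ± 0.536 CPM in female and 0.0840 ± 0.146 CPM in male cells (SD, n = 3 each). Its ratio was 47.4 with a 95% counting interval from 20.0 to 148, so its reads, like those of Hoxb9 and Mir196a-1, were nearly all in female libraries. Hoxb5os, antisense in the Hoxb5 region, was at 1.83 ± 0.473 CPM in female and 0.586 ± 0.388 CPM in male cells, and Gm11536, in the span of Hoxb3 on the opposite strand, at 2.44 ± 1.73 CPM in female and 0.741 ± 0.606 CPM in male cells, with overlapping groups. Hoxaas2 lies on the opposite strand and shares exonic bases with Hoxa3, so their reads may not be separated. It was lower in female cells, at 2.84 ± 0.342 CPM against 4.60 ± 0.709 CPM in male cells, a log2 fold change of -0.69 ± 0.26 (adjusted p = 0.0283, edgeR). Hotairm1, in the HoxA cluster, stood at 2.36 ± 0.7997 CPM in female and 3.16 ± 0.656 CPM in male cells and was not called, nor were Hoxb3os, Gm15050 and Hoxaas3. The number called higher was 1 without female replicate 2, and the number called lower was 0 without female replicate 1 or male replicate 1 and 2 without female replicate 2. Of the other protein-coding genes inside the clusters, 5730596B20Rik, within the span of Hoxa3 on the opposite strand and chosen after its values were seen, was at 5.55 ± 0.761 CPM in female and 2.70 ± 0.906 CPM in male cells.

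The nearest protein-coding genes outside the clusters differed by at most 2.12-fold where they were tested. Those tested lay 60661 (Mtx2) to 910371 (Nfe2l2) bases from the nearest Hox gene. Of the 3 nearest protein-coding genes on each side of each cluster, 24 in all, 19 were tested, 4 were called higher in female cells (Cbx1, Atf7, Smug1 and Nfe2l2), 7 lower and 8 not called. That is 57.9% called, against 60.7% of all genes tested. The log2 fold changes of the 19 lay between -1.09 (Atp5g1) and 0.88 (Smug1). Beside HoxC, the uracil-DNA glycosylase gene Smug1, 116438 bases beyond Hoxc4, was at 18.8 ± 2.17 CPM in female and 10.2 ± 1.38 CPM in male cells. Cbx5, which encodes a heterochromatin protein, was at 90.4 ± 2.01 CPM in female and 94.8 ± 6.81 CPM in male cells. Calcoco1, on the Hoxc13 side, was at 139.5 ± 2.49 CPM in female and 139.8 ± 5.49 CPM in male cells, and neither was called. Evx1 and Evx2, the homeobox genes next to Hoxa13 and Hoxd13, had 0 counts in all 6 libraries.

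The DNA-binding partners of Hox proteins were read in every library. Of 9 PBX, MEIS and PKNOX genes, 1 was called higher in female cells, 4 lower and 4 not called, with a median log2 fold change of -0.29. The share called was 55.6%, beside 60.7% over the whole tested table. Pbx3, for a PBX cofactor, was at 13.9 ± 0.993 CPM in female and 39.7 ± 2.16 CPM in male cells, and Pbx2 at 43.8 ± 3.03 CPM in female and 62.6 ± 3.61 CPM in male cells. Meis2, which encodes a TALE cofactor, was at 36.7 ± 2.11 CPM in female and 63.5 ± 1.39 CPM in male cells.

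Of 23 Polycomb genes, 8 were called higher in female cells, 7 lower and 8 not called, with a median log2 fold change of -0.07. That is 65.2% called, near the 60.7% of all genes tested. The number called lower was 4 without female replicate 2 or without male replicate 3. Rnf2, which encodes the H2A ubiquitin ligase of Polycomb complex 1, was at 95.8 ± 3.92 CPM in female and 56.1 ± 6.04 CPM in male cells (log2 fold change 0.77 ± 0.09). Phc3, for another subunit of that complex, was at 92.5 ± 15.2 CPM in female and 44.9 ± 7.12 CPM in male cells. Ezh1, for a H3K27 methyltransferase, was at 53.9 ± 4.88 CPM in female and 31.6 ± 0.812 CPM in male cells. Jarid2, for a recruiting factor of complex 2, was at 23.7 ± 2.05 CPM in female and 9.97 ± 2.19 CPM in male cells. Of the 7 genes called lower, Ezh2 and Ring1 were named after their values were seen. Ezh2 was at 10.9 ± 0.246 CPM in female and 22.1 ± 3.29 CPM in male cells (log2 fold change -1.02 ± 0.14). The log2 fold change of Ring1 was -0.94 ± 0.14.

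Of 14 trithorax and demethylase genes, 8 were called higher in female cells, 1 lower and 5 not called, with a median log2 fold change of 0.46. The share called was 64.3%, against 60.7% of all genes tested (30.9% higher and 29.8% lower). Kdm6a, an X-linked gene for a demethylase of the Polycomb mark H3K27me3, was at 47.7 ± 2.61 CPM in female and 14.1 ± 1.26 CPM in male cells (log2 fold change 1.76 ± 0.11). Its autosomal paralog Kdm6b was at 79.1 ± 2.51 CPM in female and 41.6 ± 5.23 CPM in male cells. Ash1l, for a histone methyltransferase, was at 133 ± 13.5 CPM in female and 73.6 ± 6.50 CPM in male cells, and Kmt2c, for another, at 51.7 ± 9.91 CPM in female and 23.4 ± 1.81 CPM in male cells. The gene called lower, named after its value was seen, was Dpy30, for a shared subunit of the H3K4 methyltransferases.

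Of 12 retinoid and CDX genes, 6 were tested, with 4 called higher in female cells, 1 lower and 1 not called and a median log2 fold change of 0.64. These are 83.3% of the 6, beside 60.7% called over all genes tested. Rarb, for a retinoic acid receptor that is itself induced by retinoic acid, was at 15.5 ± 2.42 CPM in female and 2.98 ± 0.382 CPM in male cells (log2 fold change 2.38 ± 0.19). Rarg, for a related receptor, was at 212 ± 16.6 CPM in female and 106 ± 8.57 CPM in male cells, and Cyp26b1, for an enzyme that breaks retinoic acid down, at 3.68 ± 0.566 CPM in female and 1.29 ± 0.640 CPM in male cells. Aldh1a1, for an enzyme that makes retinoic acid, ran the other way, at 1.34 ± 0.757 CPM in female and 15.8 ± 0.927 CPM in male cells, a log2 fold change of -3.55 ± 0.27 (adjusted p = 7.84e-09, edgeR). The number called lower was 2 without female replicate 1, 2 or 3 and without male replicate 3. Cdx1 and Cdx2 had 0 counts in all 6 libraries. Whether any of these regulators bears on the Hox levels was not tested.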

How the data were processed

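RNA was extracted with an organic reagent, selected by poly-T beads, fragmented and copied from random hexamers, per the labels' protocols, which allow a strand-marking and an unmarked second strand without saying which was used. Per the submitters' processing notes, HISAT2 2.0.5, featureCounts 1.5 and the mm10 build were used. The deposited table holds raw counts per gene that the authors did not normalise, with coordinates, length and biotype. It had 0 other sample columns and 0 entries without a gene name. Identifiers, coordinates and lengths of the Hox genes equalled those of GENCODE M21 except for Hoxd4. How the counting treated strand and multi-mapping reads is not given, so reads of genes on opposite strands may not be separated.

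The sexes were compared in R 4.3.3 by edgeR 4.0.16 (low counts removed with filterByExpr, TMM, glmQLFit, glmQLFTest, sex as the only term, two-sided, Benjamini-Hochberg adjustment over 14814 genes, called under 0.05). The SE is the size of the log2 fold change over the square root of F. The fit was tested on simulated data. RPKM was computed from the counts, the effective library size and the deposited gene length. A member was called detected at 1 CPM in every library of a sex. A fold against a sex with 0 counts is a bound that assumes 3 counts per library, and with 1 to 10 counts it is a ratio with a 95% exact counting interval. Same-sex libraries differed beyond sampling noise (chi-square over degrees of freedom 7.42 to 15.99), so none was merged. Members with a mean of 1 CPM in either sex have all 6 values printed, non-coding and flanking genes of that level may be named, and each other list gives up to 4 genes with the smallest adjusted p. For 1 Hox gene and 1 cofactor gene that this rule takes, values are not reported here, though counts and sums include them. Members and lists were chosen with earlier results of these data known. Alternatives were other scalings, DESeq2 1.42.0, limma-voom (limma 3.58.1), no filter, protein-coding genes only, removal of a gene length trend, a replicate block and leaving out each library.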

Additional observations from a re-analysis of the deposited data

How the results depend on the processing

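Over 15 alternatives, the log2 fold changes of the 22 tested Hox genes gave 330 values, of which 327 kept the direction and side of the threshold, 3 passed the threshold and 0 reversed. The 3 were all of Hoxa2, called lower under upper quartile scaling (-0.49), plain library totals (-0.53) and without female replicate 3 (-0.53). The number of Hox genes called higher was 16 throughout except for 17 with the DESeq2 Wald test, where Hoxd8 was added, and the number called lower was 4 or 5. Genes called over the whole table ranged from 8236 to 9320, and total counts moved the median of all genes to -0.13, against -0.01 with TMM. The number called lower was 4 to 8 for Polycomb genes when each library was left out in turn, 1 to 2 for retinoid and CDX genes and 0 to 2 for non-coding genes, of which 1 to 3 were called higher. With total counts 2 trithorax genes were called lower, and with the length trend removed 0 non-coding genes were. Shares from raw counts were 28.6% for HoxC in female cells, 9.63% and 29.8% for paralogs 1 to 3 in female and male cells, 82.2% and 65.6% for paralogs 4 to 8, and 8.21% and 4.63% for paralogs 9 to 13. Without the members whose span contains another, HoxA gave 58.2% and HoxB 41.7% in male cells and HoxC 24.97% in female cells, paralogs 1 to 3 gave 4.08% and 12.6% in female and male cells, and paralogs 4 to 8 gave 89.3% and 84.2%. Deviations of same-numbered female and male libraries from their sex means correlated at -0.01, -0.10 and -0.15 over 10812 genes. Those of libraries with unlike numbers correlated at -0.06 to 0.16. Deviations from a mean of 3 are tied together, so these values cannot tell whether the libraries were collected in pairs. With the replicate block, 16 Hox genes were called higher, 4 lower, and 8525 genes in all. The non-coding and flanking counts under alternatives, and the detection and share values without a library, were chosen after seeing the data. Depth limits the 5 members with 1 to 3 counts, for which no direction can be read.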
